A study of Mus musculus with 27 samples.

Results

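The genes described here were 10 members of the circadian clock, Dbp, Tef, Hlf, Per1, Per2, Per3, Nr1d1, Nr1d2, Arntl and Npas2. They were taken by name from the 53379 genes of a count table of hepatic stellate cells (HSCs), liver mesenchymal cells that store vitamin A. RNA came in bulk from uncultured cells of male Balb/c mice, which had been sorted by ultraviolet positivity, and no group carried a transgene or a deletion. The 27 libraries formed 7 groups. Healthy mice received no injection, were 10 to 12 weeks old and gave 4 libraries. Acute groups received a single intraperitoneal injection of the hepatocyte toxin carbon tetrachloride (CCl4, 0.5 µL per g of body weight, in mineral oil) at 10 to 12 weeks and were collected 24 h (n = 3), 72 h or 7 d (n = 4 each) later. Chronic groups received 8 injections of the same dose over 4 weeks, starting at 8 to 10 weeks, and were collected 24 h, 72 h or 14 d after that course (n = 4 each). Healthy mice were not given mineral oil, so that vehicle and toxin cannot be told apart. Chronic mice started the course younger than the others were, but were collected only after its 4 weeks. By these ages they would have been older than the healthy mice at collection, so that age and repeated injury cannot be told apart. The hour of day at collection is not given in the sources used here, so that the hour of collection and the group, or the hour and the library, cannot be told apart in anything that follows.

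The circadian clock is a transcriptional loop present in nearly every cell. Its positive limb, Arntl (also known as Bmal1) with either Clock or Npas2, binds E-boxes and drives Per1, Per2, Per3, Nr1d1, Nr1d2 and the output factors Dbp, Tef and Hlf. The PER proteins shut the positive limb down, the nuclear receptors NR1D1 and NR1D2 (REV-ERB alpha and beta) repress Arntl and Npas2 through RORE sites, and DBP, TEF and HLF activate genes such as Per3 through D-boxes. In mouse liver Arntl and Npas2 therefore peak at another hour than Dbp, Per3 and Nr1d1.

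Of the output factors, Dbp lies at chr7:45705088-45710203 (ENSMUSG00000059824, plus strand), Tef at chr15:81802421-81826863 (ENSMUSG00000022389, plus) and Hlf at chr11:90336536-90390895 (ENSMUSG00000003949, minus). Of the period genes, Per1 lies at chr11:69095217-69109960 (ENSMUSG00000020893, plus), Per2 at chr1:91415982-91459324 (ENSMUSG00000055866, minus) and Per3 at chr4:151003652-151044665 (ENSMUSG00000028957, minus). Nr1d1 lies at chr11:98767932-98775333 (ENSMUSG00000020889, minus) and Nr1d2 at chr14:18204054-18239127 (ENSMUSG00000021775, minus). Arntl lies at chr7:113207465-113314126 (ENSMUSG00000055116, plus) and Npas2 at chr1:39193731-39363236 (ENSMUSG00000026077, plus). Positions are those of GENCODE M21 on GRCm38, the build the authors aligned to, and counts were per gene.

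The sites through which these genes act on each other were looked for in RefSeq promoter windows on GRCm38.p6, each from 250 bases before to 50 bases after a start of transcription. Windows were found for 9 members (12 windows), and Per2 had no entry. The words searched on both strands were CACGTG (E-box, its own reverse complement), TTATGTAA and TTACGTAA (D-box) and TAGGTCA (RORE). Among all 32851 windows, 7.15% held CACGTG, 0.938% TTATGTAA, 0.119% TTACGTAA and 2.61% TAGGTCA. E-boxes were found in Per1 and in both windows of Tef, D-boxes in Per3 and a RORE in 1 of the 2 windows of Arntl, and the windows of Dbp, Hlf, Nr1d1, Nr1d2 and Npas2 held none of these words. The stretches that hold them are printed 5′ to 3′ on the strand of the gene, with the word in capitals. Per3 is shown for its pair of D-boxes, which begin 205 and 158 bases before the start, Arntl for the RORE that begins 30 bases after it, and Per1 and Tef for their E-boxes.
Per3, chr4:151044806-151044880, minus strand: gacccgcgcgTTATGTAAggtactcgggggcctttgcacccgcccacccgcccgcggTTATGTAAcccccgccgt
Arntl, chr7:113207526-113207555, plus strand: agggaaggcagaaagTAGGTCAgggacgga
Per1, chr11:69098759-69098818, plus strand: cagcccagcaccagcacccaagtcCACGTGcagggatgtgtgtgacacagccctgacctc
Tef, chr15:81802518-81802577, plus strand: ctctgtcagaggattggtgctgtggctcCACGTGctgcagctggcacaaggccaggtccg
Tef, second window, chr15:81811249-81811308, plus strand: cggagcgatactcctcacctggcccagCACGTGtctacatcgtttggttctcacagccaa
These matches describe letters only, and binding was not measured.

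Total counts ranged from 6.31 to 13.1 M per library. Lower depth (at most 7.58 M) marked 8 libraries, namely replicates 1 and 2 at both chronic 24 h and chronic 72 h and the whole chronic 14 d group, and the other 19 had at least 10.8 M. Levels are CPM, counts relative to the library total after TMM scaling (trimmed mean of M values), and levels of different genes are compared only as CPM per kb of exon. A gene was called when it passed a Benjamini-Hochberg adjusted p of 0.05 over the 18758 genes tested, in edgeR's quasi-likelihood test on all 27 libraries, and differed by more than 2-fold. All adjusted p in the text come from that test, and fold changes are fitted values with their standard error (SE). Whether libraries of a group came from separate mice is stated only as individual experiments, so that the p-values measure the spread between these libraries. All 12 HSC markers (among them Lrat, Des, Reln and Hgf) were present in every group with summed levels of 28244 to 48901 CPM in healthy libraries. The sums lay below every healthy library in acute 72 h (16248 to 20087 CPM), acute 7 d (19138 to 22125 CPM), chronic 24 h (15308 to 18173 CPM) and chronic 72 h (21985 to 24537 CPM), and overlapped with healthy in acute 24 h (20622 to 33458 CPM) and chronic 14 d (23988 to 30998 CPM). Taken singly, 5 of the 12 markers were called lower and 0 higher in acute 24 h against healthy, beside 12.5% and 9.41% of all genes. In chronic 14 d 1 was lower and 0 higher, beside 1.17% and 4.55%. The part of these shifts in the clock calls of any group was not tested. In such bulk RNA, fewer cells of a type and less RNA per cell cannot be told apart.

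All 10 clock genes passed the filter on low counts, and all 10 differed among the 7 groups. The adjusted p of the F test over the groups ran from 1.24e-05 in Nr1d1 to 0.0157 in Arntl. This share stands beside 56.0% of all genes tested. Over the 21 pairs of groups, 12.5% of all tests were calls. Hlf was called in 12 of the 21 pairs, Dbp and Per3 in 11 each, Nr1d1 in 9, Tef in 8, Per2 in 7, Per1 in 6, Nr1d2 in 5, Arntl in 4 and Npas2, nearest to the share of all genes, in 3. In healthy HSCs, Nr1d1 had the highest level per length (56.7 CPM per kb, mean of 4 libraries), followed by Nr1d2 with 15.9 and Npas2 with 13.2. Hlf (0.549 CPM per kb) and Per3 (0.827 CPM per kb) had the lowest.

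**Figure D1:**
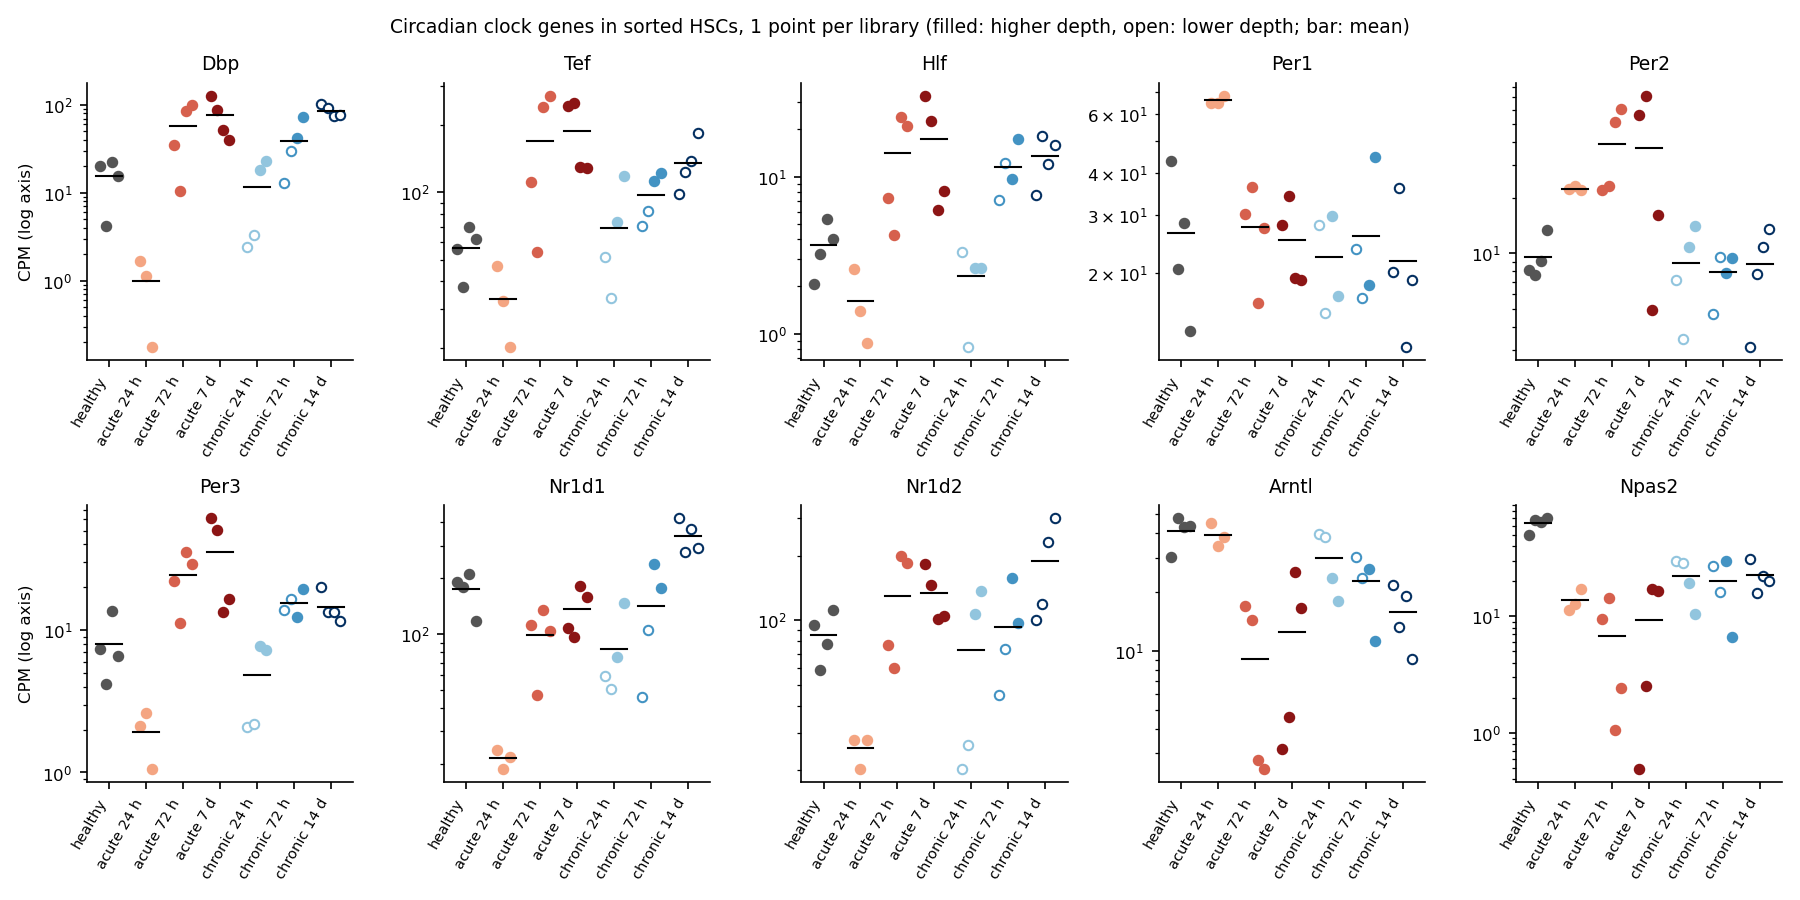
Level of each of the 10 clock genes in every library, as CPM on a log axis, by group; each point is 1 library, open points are libraries of lower depth, and bars are group means. Dbp, Per3, Nr1d1 and Nr1d2 were lowest on average in acute 24 h, Per1 was highest there, and Arntl and Npas2 were highest in healthy libraries.

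Dbp, a PAR bZIP factor and one of the strongest outputs of the clock, had the widest range of group means by ratio. Healthy libraries held 20.3, 4.19, 22.2 and 15.3 CPM (replicates 1 to 4, mean 15.5 ± 8.09 SD). Acute 24 h libraries held 1.69, 1.13 and 0.176 CPM, the last from a count of 2. All 3 acute libraries at 24 h lay below all healthy ones, and Dbp fell by 3.95 on the log2 scale (SE 0.95, 15.4-fold lower, adjusted p 0.00239). At 72 h after a single injection Dbp stood at 35.4, 10.6, 85.8 and 100 CPM, and at 7 d at 128, 87.8, 51.8 and 39.8 CPM. The 72 h libraries overlapped the healthy ones (log2 fold change 1.90, SE 0.71, adjusted p 0.0583), whereas all 7 d libraries lay above them (2.30, SE 0.72, 4.94-fold, adjusted p 0.0226). Without acute 72 h replicate 2 the first difference passed (adjusted p 0.0254), and without healthy replicate 2 or acute 7 d replicate 1 the second did not (adjusted p 0.0720 and 0.0693). In chronic 24 h libraries Dbp stood at 2.40, 3.29, 18.3 and 23.1 CPM, in chronic 72 h libraries at 12.9, 30.1, 41.9 and 72.1 CPM, and in chronic 14 d libraries at 101, 92.2, 74.6 and 76.7 CPM. In chronic 24 h the libraries of lower depth (replicates 1 and 2) were the low ones and the group overlapped the healthy one, while every chronic 14 d library exceeded every healthy library. Dbp rose in chronic 14 d by 2.47 against healthy (SE 0.72, 5.55-fold, adjusted p 0.0350) and by 2.85 against chronic 24 h (SE 0.74, 7.19-fold, adjusted p 0.00724). Ordered by mean, the groups ran acute 24 h, chronic 24 h, healthy, chronic 72 h, acute 72 h, acute 7 d and chronic 14 d, and of these neighbours only acute 24 h and chronic 24 h differed.

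Tef and Hlf, the other PAR bZIP factors, had smaller fitted changes than Dbp at 24 h, and neither was called there. Tef stood at 37.7 to 69.9 CPM in healthy and at 20.3 to 46.7 CPM in acute 24 h libraries, which overlapped (adjusted p 0.211). It stood at 112, 53.9, 240 and 271 CPM in acute 72 h and at 244, 251, 130 and 129 CPM in acute 7 d libraries. All libraries of 7 d, and all but replicate 2 of 72 h, exceeded the highest healthy one, and Tef rose by 1.59 (SE 0.42, adjusted p 0.00852) and by 1.74 (SE 0.42, adjusted p 0.00431) on the log2 scale. In chronic 14 d Tef held 98.3 to 185 CPM, above all healthy libraries, at 1.27 on the log2 scale (SE 0.42, adjusted p 0.0603). That value passed with library size alone (adjusted p 0.0327), the replicate number as a block (0.0485), depth class as a term (0.0225), the 2 groups alone (0.0214) and DESeq2 (0.0182). It thus passed in 5 of 9 settings, with adjusted p up to 0.116 in the others, and in 0 of 8 fits with a library left out. All chronic 14 d and no healthy libraries had lower depth, so that the depth term rests on other groups. Hlf held 2.09, 3.22, 5.39 and 3.99 CPM in healthy and 2.58, 1.39 and 0.878 CPM in acute 24 h libraries (log2 fold change -1.18, SE 0.64, adjusted p 0.163). It held 7.26, 4.24, 24.1 and 21.1 CPM in acute 72 h and 32.8, 22.6, 6.12 and 8.05 CPM in acute 7 d libraries. Replicates 3 and 4 were the high ones at 72 h and replicates 1 and 2 at 7 d. Hlf rose by 1.95 at 72 h (SE 0.56, adjusted p 0.0138) and by 2.24 at 7 d (SE 0.56, adjusted p 0.00534); the first call was lost without acute 72 h replicate 3 (adjusted p 0.0639) or 4 (0.0503). In chronic libraries Hlf ran from 0.824 to 3.30 CPM at 24 h, from 7.07 to 17.3 CPM at 72 h and from 7.70 to 18.0 CPM at 14 d. The 72 h and 14 d libraries lay above all healthy and all chronic 24 h ones. Hlf rose by 1.65 at chronic 72 h (SE 0.56, adjusted p 0.0378) and by 1.87 at chronic 14 d (SE 0.56, adjusted p 0.0385) against healthy, and by 2.50 at chronic 14 d against chronic 24 h (SE 0.58, adjusted p 0.00309).

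Per1, the period gene that also answers directly to hormones and other signals, moved apart from the rest. Healthy libraries held 43.6, 20.6, 28.3 and 13.4 CPM, and acute 24 h libraries 65.0, 65.1 and 68.3 CPM (mean 66.1 ± 1.88 SD, n = 3). The acute 24 h libraries were nearly level and lay above every library of the other 6 groups, of which the highest held 44.7 CPM. Per1 rose by 1.32 against healthy (SE 0.39, 2.50-fold, adjusted p 0.0111) and was lower in chronic 24 h than in acute 24 h by 1.56 (SE 0.39, 2.94-fold, adjusted p 0.00602). The 6 pairs in which Per1 was called were those of acute 24 h with each other group, and no other pair was called. Fkbp5 and Zbtb16, from a list of 5 glucocorticoid-responsive genes, were called higher in the same comparison: Fkbp5 stood at 47.3 to 62.4 CPM in healthy and at 313 to 336 CPM in acute 24 h libraries (log2 fold change 2.63, SE 0.29, adjusted p 3.82e-07). Tsc22d3 of that list stood at 48.5 to 61.2 CPM in acute 24 h and 86.8 to 115 CPM in healthy libraries. Of the 5 genes, 2 were called higher and 0 lower, beside 9.41% and 12.5% of all genes. Fkbp5 and Zbtb16 were named because they moved with Per1. In chronic 24 h, where Per1 held 15.2 to 29.6 CPM, within the healthy range, Fkbp5 was called higher too (108 to 235 CPM, log2 fold change 1.56, SE 0.26, adjusted p 8.50e-05), and the 5 genes summed to 1336 to 2027 CPM against 1503 to 1703 CPM in acute 24 h and 899 to 1217 CPM in healthy libraries. Of 8 immediate early genes 0 were called in acute 24 h against healthy, beside 9.41% of all genes higher and 12.5% lower. Whether hormones or other signals had a part in the level of Per1 was not tested.

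Per2, another period gene and repressor of the positive limb, had higher means in the acute groups than in the healthy and chronic ones. It held 8.16, 7.61, 9.10 and 13.4 CPM in healthy libraries and 22.3, 23.1 and 21.9 CPM in acute 24 h libraries. Those groups did not overlap, but the difference missed the threshold (log2 fold change 1.23, SE 0.60, adjusted p 0.124) and passed when only both groups were fitted (1.30, adjusted p 0.00485). In acute 72 h Per2 held 22.0, 23.1, 51.3 and 60.2 CPM and in acute 7 d 56.5, 71.7, 4.91 and 16.2 CPM. The 72 h libraries lay above all healthy ones (2.03, SE 0.58, adjusted p 0.0140), while at 7 d replicates 1 and 2 stood far above and replicate 3 below them (1.96, SE 0.58, adjusted p 0.0163). The 72 h call was lost without acute 72 h replicate 4 (adjusted p 0.0509), and the 7 d call without acute 7 d replicate 1 or 2 (0.0509 and 0.0816) or when the 2 groups were fitted alone (0.0864). Chronic libraries held 3.43 to 14.0 CPM at 24 h, 4.67 to 9.57 CPM at 72 h and 3.11 to 13.5 CPM at 14 d, and each group overlapped the healthy one. Per2 was lower in chronic 72 h than in acute 72 h by 2.31 (SE 0.59, 4.96-fold, adjusted p 0.00998), with no overlap. That call was lost among libraries of higher depth (-2.13, adjusted p 0.113) and with depth class as a term (-1.94, adjusted p 0.0750).

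Per3, whose promoter stretch holds the D-box pair shown above, was low at 24 h and high at the later times. Healthy libraries held 7.34, 4.19, 13.6 and 6.59 CPM and acute 24 h libraries 2.14, 2.60 and 1.05 CPM. All 3 acute libraries were below the healthy ones, and Per3 fell by 2.04 (SE 0.58, 4.10-fold lower, adjusted p 0.00865), a call lost without acute 24 h replicate 3 (adjusted p 0.0523). Per3 then stood at 22.2, 11.2, 35.4 and 29.2 CPM in acute 72 h and at 61.4, 50.7, 13.4 and 16.5 CPM in acute 7 d libraries. At both times the lowest library fell below the highest healthy one, and Per3 rose by 1.62 (SE 0.49, adjusted p 0.0193) and by 2.16 (SE 0.50, adjusted p 0.00274). The first of these calls was lost without healthy replicate 2 (adjusted p 0.0674) or acute 72 h replicate 3 (0.0670). After repeated injury Per3 went from 2.10, 2.20, 7.72 and 7.20 CPM at 24 h to 12.4 to 19.5 CPM at 72 h and 11.6 to 20.0 CPM at 14 d. Both later groups lay above all chronic 24 h libraries. Chronic 14 d exceeded chronic 24 h by 1.57 (SE 0.50, adjusted p 0.0255), a call lost without chronic 24 h replicate 1 (adjusted p 0.0702) or 2 (0.0815) or chronic 14 d replicate 1 (0.0718).

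Nr1d1, the repressor that closes the loop on Arntl, showed the smallest adjusted p of all members. Healthy libraries held 190, 180, 211 and 117 CPM and acute 24 h libraries 23.9, 18.7 and 21.9 CPM (mean 21.5 ± 2.58 SD, n = 3). Every acute 24 h library lay far below the healthy ones, and Nr1d1 fell by 3.02 (SE 0.47, 8.11-fold lower, adjusted p 3.08e-05). At 72 h it held 112, 47.4, 135 and 104 CPM and at 7 d 107, 96.3, 182 and 158 CPM, and neither group was called against healthy (adjusted p 0.145 and 0.556). In chronic libraries Nr1d1 stood at 59.5, 50.9, 75.6 and 148 CPM at 24 h, at 45.7, 106, 240 and 177 CPM at 72 h and at 424, 278, 368 and 290 CPM at 14 d. The chronic 14 d libraries lay above every library of the other groups, and the chronic 24 h group overlapped the healthy one only through replicate 4. Nr1d1 was lower in chronic 24 h than in healthy by 1.06 (SE 0.39, adjusted p 0.0424), higher in chronic 14 d than in chronic 24 h by 2.02 (SE 0.40, 4.07-fold, adjusted p 0.000816) and higher in chronic 24 h than in acute 24 h by 1.96 (SE 0.45, adjusted p 0.00297). Against healthy, chronic 14 d gave 0.96 (SE 0.39, adjusted p 0.132), and with depth class as a term 2.20 (adjusted p 0.00461). All chronic 14 d libraries had lower and all healthy ones higher depth, so that depth and group cannot be told apart between them. The depth term was set by chronic 24 h and chronic 72 h, the only groups with both classes. With the libraries of higher depth alone, chronic 24 h gave -0.62 against healthy (adjusted p 0.237).

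Nr1d2, the paralogue of Nr1d1, was called in fewer pairs of groups. It held 58.6 to 112 CPM in healthy libraries and 27.8, 20.3 and 27.8 CPM in acute 24 h libraries, which lay below all of them. Nr1d2 fell by 1.76 (SE 0.59, 3.39-fold lower, adjusted p 0.0236), a call lost without healthy replicate 4 (adjusted p 0.0506) or any of acute 24 h replicates 1 to 3 (0.0574 to 0.0922). In chronic 24 h the libraries of lower depth held 20.2 and 26.2 CPM, levels like those of acute 24 h. Those of higher depth held 107 and 136 CPM, near and above the highest healthy library (112 CPM). In chronic 14 d it held 101, 119, 232 and 300 CPM. Chronic 14 d against chronic 24 h gave 1.37 (SE 0.52, adjusted p 0.0615) and, with depth class as a term, 2.65 (adjusted p 0.000719). All chronic 14 d libraries had lower depth.

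Arntl, the obligate partner in the positive limb, stood high in healthy and acute 24 h libraries and low at the later acute times. It held 30.3, 48.1, 43.4 and 43.4 CPM in healthy libraries and 45.2, 34.3 and 38.4 CPM in acute 24 h libraries. These groups overlapped (log2 fold change -0.07, SE 0.60, adjusted p 0.951). At 72 h Arntl held 16.9, 14.4, 2.76 and 2.48 CPM and at 7 d 3.15, 4.59, 25.5 and 16.6 CPM. All libraries of both times lay below the healthy ones, replicates 3 and 4 being lowest at 72 h and replicates 1 and 2 at 7 d. Arntl fell by 2.18 at 72 h (SE 0.59, 4.53-fold lower, adjusted p 0.00956) and by 1.73 at 7 d (SE 0.58, adjusted p 0.0323). The 7 d call was lost without healthy replicate 2 (adjusted p 0.0676) or 3 (0.0575) or acute 7 d replicate 1 (0.0984) or 2 (0.0940). In chronic libraries Arntl ran from 17.9 to 39.9 CPM at 24 h, from 11.3 to 30.4 CPM at 72 h and from 9.11 to 21.9 CPM at 14 d. The 14 d libraries were below all healthy ones, with -1.38 (SE 0.57, adjusted p 0.143), which passed when only both groups were fitted (adjusted p 0.0321).

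Npas2, which can take the place of Clock as partner of Arntl, fell in every acute group. Healthy libraries held 50.3, 67.8, 64.0 and 70.2 CPM, above every injured library of the series, the highest of which held 31.3 CPM. Acute 24 h libraries held 11.4, 12.7 and 17.1 CPM, acute 72 h libraries 9.48, 14.4, 1.06 and 2.40 CPM and acute 7 d libraries 0.485, 2.54, 17.3 and 16.6 CPM. Npas2 fell by 2.20 (SE 0.81, adjusted p 0.0402), 3.21 (SE 0.77, adjusted p 0.00399) and 2.77 (SE 0.75, adjusted p 0.00936) on the log2 scale. The 24 h call was lost without healthy replicate 2, 3 or 4 or any of acute 24 h replicates 1 to 3 (adjusted p 0.0599 to 0.124). Chronic libraries ran from 10.5 to 30.0 CPM at 24 h, from 6.58 to 29.9 CPM at 72 h and from 15.8 to 31.3 CPM at 14 d. None of these overlapped healthy, yet log2 fold changes of -1.52, -1.66 and -1.49 missed the threshold (adjusted p 0.114, 0.109 and 0.213). Each passed when only the 2 groups compared were fitted (adjusted p 0.00978, 0.0280 and 0.0103). The wide spread of Npas2 in the acute 72 h and 7 d groups enters the shared estimate of spread.

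**Figure D2:**
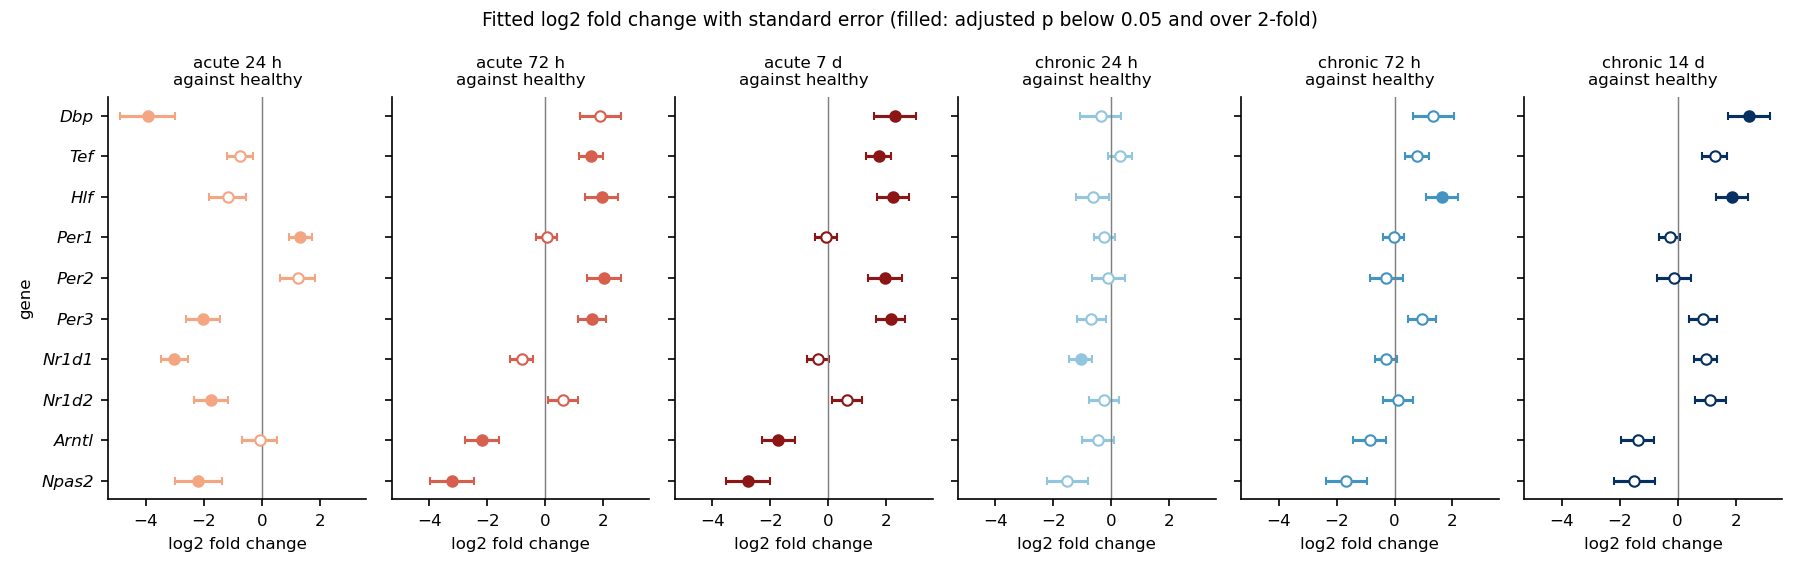
Fitted log2 fold change of the 10 clock genes in each injured group against healthy, with bars of 1 standard error; filled points were called. In order of time, 6, 6 and 7 of the 10 were called in the acute groups and 1, 1 and 2 in the chronic groups. Of all genes, 9.41%, 8.23% and 9.23% were called higher and 12.5%, 4.33% and 5.64% lower in the acute groups. In the chronic groups these shares were 11.2%, 7.88% and 4.55% higher and 8.11%, 4.20% and 1.17% lower. Each group is set against healthy here, not acute against chronic.

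Counted over the members, most were called in each acute group. At 24 h, 1 of 10 was called higher (Per1), beside 9.41% of all genes, and 5 lower (Dbp, Per3, Nr1d1, Nr1d2 and Npas2), beside 12.5%. At 72 h, 4 were higher (Tef, Hlf, Per2 and Per3), beside 8.23%, and 2 lower (Arntl and Npas2), beside 4.33%. At 7 d, 5 were higher (Dbp, Tef, Hlf, Per2 and Per3), beside 9.23%, and 2 lower (Arntl and Npas2), beside 5.64%. The median log2 fold change of the members was -1.47 at 24 h, 1.10 at 72 h and 1.19 at 7 d, where the medians of all genes were -0.12, 0.00 and 0.01. The 24 h count went from 6 to 3 without acute 24 h replicate 3, and the 7 d count from 7 to 4 without acute 7 d replicate 1. Library size alone as the scaling moved the median of all genes by 0.10 at 72 h and at 7 d. All 6 comparisons with healthy mice share the same 4 healthy libraries. The members were chosen with earlier results of these data known, so that their counts cannot stand for clock genes at large. Of the 16 further clock genes tested, described below, 13, 15 and 12 were not called in the acute groups at 24 h, 72 h and 7 d.

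Markers of some other cells also differed in the acute 24 h group. All 10 hepatocyte markers were called lower there, with a summed level of 19.4 to 225 CPM against 483 to 3492 CPM in healthy libraries. With the mean log2 level of these markers as a term, the members called in acute 24 h against healthy numbered 1 in place of 6, Nr1d1. The other 5 kept their direction: the log2 fold changes were then -4.47 for Dbp (adjusted p 0.0590), -2.29 for Per3 (0.139), -2.08 for Nr1d2 (0.173), -2.53 for Npas2 (0.236) and 1.06 for Per1 (0.286), so that Per1 alone moved towards 0. The mean log2 level of these markers was 0.21, 1.58 and 3.42 in the acute 24 h libraries and at least 4.40 in every other library. The term and the acute 24 h group therefore cannot be told apart. The share of all genes called with this term was not calculated. No hepatocyte marker was at 0 in all libraries of any group. Macrophage markers (11 genes) summed to 146 to 199 CPM in acute 24 h, 154 to 612 CPM in healthy and 823 to 3090 CPM in acute 7 d libraries. Liver sinusoidal endothelial markers (8 genes) summed to 119 to 400 CPM in healthy libraries, and without overlap to 63.0 to 86.2 CPM in acute 24 h and 31.4 to 114 CPM in acute 72 h. They summed to 342 to 545 CPM in chronic 14 d and 56.6 to 186 CPM in chronic 24 h, again without overlap. In acute 24 h against healthy, 5 of the 8 endothelial markers were called lower and 1 higher, beside 12.5% and 9.41% of all genes. Of 8 lymphocyte and neutrophil markers, 3 were lower and 3 higher there. Within groups, the correlation of the members with the hepatocyte markers lay between -0.18 and 0.18, with the macrophage markers between -0.71 (Nr1d2) and 0.58 (Arntl), and with the endothelial markers between -0.56 (Nr1d2) and 0.54 (Arntl), over 27 libraries. The part of these cells in the levels of the clock genes was not tested further.

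After repeated injury few members were called against healthy. In chronic 24 h 0 were higher, beside 11.2%, and 1 lower (Nr1d1), beside 8.11% of all genes. In chronic 72 h 1 was higher (Hlf), beside 7.88%, and 0 lower, beside 4.20%. In chronic 14 d 2 were higher (Dbp and Hlf), beside 4.55%, and 0 lower, beside 1.17%. At an unadjusted p under 0.05 in edgeR, 0 members were higher in chronic 24 h, 1 was lower in chronic 72 h and 2 were lower in chronic 14 d, and DESeq2 called 0 in each of these. None of the 4 calls held under every setting. The chronic 24 h call was lost without healthy replicate 1, 2 or 3 or chronic 24 h replicate 1, 2 or 3 (adjusted p 0.0719 to 0.125), and the chronic 72 h call without healthy replicate 1, 2 or 4 or chronic 72 h replicate 2 or 4 (0.0545 to 0.125). In chronic 14 d, Dbp was lost without any of healthy replicates 1 to 4 or chronic 14 d replicates 1 to 3 (0.0510 to 0.109), and Hlf without healthy replicate 1 or 2 or chronic 14 d replicate 2, 3 or 4 (0.0576 to 0.110). Library size alone moved the median of all genes by 0.12 in chronic 72 h and by 0.17 in chronic 14 d.

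Within the chronic course, 4 members were higher in chronic 14 d than in chronic 24 h (Dbp, Hlf, Per3 and Nr1d1), beside 6.65% of all genes, and 0 were lower, beside 6.11% (0 at an unadjusted p under 0.05 in edgeR, and 0 in DESeq2). The median log2 fold change of the members was 1.17, and that of all genes 0.01. All chronic 14 d libraries had lower depth, and with depth class as a term 6 members were called. Hepatocyte markers rose here too (6 of 10 called higher, 1603 to 7582 CPM in chronic 14 d against 462 to 2006 CPM in chronic 24 h), and with their score as a term 2 members were called. Dbp and Nr1d1 remained, Hlf gave 2.07 (adjusted p 0.0621) and Per3 1.71 (adjusted p 0.107). The shares of all genes called with either term were not calculated.

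Single and repeated injury were compared at matched times after the last injection. Chronic 24 h against acute 24 h had 2 members higher (Dbp and Nr1d1), beside 10.9% of all genes, and 1 lower (Per1), beside 3.05%. Dbp was higher by 3.57 on the log2 scale (SE 0.94, 11.9-fold, adjusted p 0.00828). Depth class as a term gave 5 calls, adding Tef (1.40, adjusted p 0.0323) and Nr1d2 (1.98, adjusted p 0.00428). With the hepatocyte score as a term 1 call, Nr1d1, was left, while the log2 fold changes of the other two were 3.97 for Dbp (adjusted p 0.0822) and -1.31 for Per1 (0.205). That score was lower in every acute 24 h library than in any other library, so that score and group cannot be told apart here. The shares of all genes called with the depth or hepatocyte term were not calculated. Chronic 72 h against acute 72 h had 0 higher, beside 5.11% (2 at an unadjusted p under 0.05 in edgeR, 0 in DESeq2), and 1 lower (Per2), beside 4.01%. The step from 24 h to 72 h was then compared between single and repeated injury, a test chosen after the data had been seen. Dbp rose by 5.85 after a single injection (adjusted p 0.000192) and by 1.72 after repeated injection, a difference of 4.13 (SE 1.15, adjusted p 0.0220). Dbp was the single member to pass this test, which 10.8% of all genes passed, and Tef gave 1.87 (SE 0.62, adjusted p 0.0546).

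**Figure D3:**
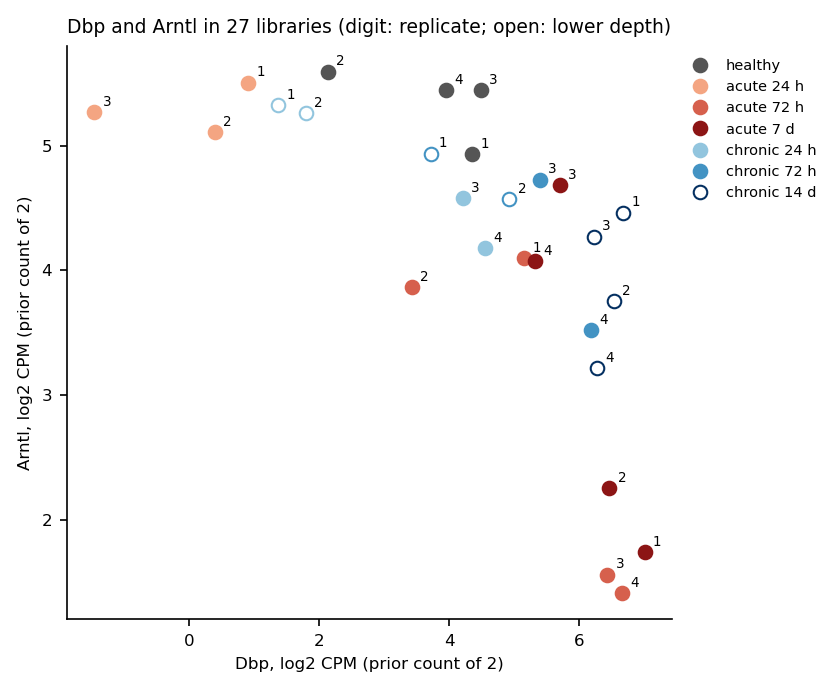
Level of Arntl against Dbp in the 27 libraries, each as log2 CPM with a prior count of 2; digits are replicates and open points are libraries of lower depth. Acute 24 h libraries lie at the upper left, and replicates 3 and 4 of acute 72 h with replicates 1 and 2 of acute 7 d at the lower right.

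Libraries of the same group often stood far apart in the clock genes. The SD of log2 CPM within groups was 1.14 in Dbp, 1.20 in Npas2 and 0.54 to 0.92 in the other 8. For each member this lay above that of 84.5% (Per1) to 96.6% (Dbp) of genes of similar level. The level of Dbp over Arntl, as a difference of log2 CPM, ran from -3.46 to -0.57 in healthy, from -6.72 to -4.59 in acute 24 h and from 1.95 to 3.05 in chronic 14 d libraries. It ran from -0.44 to 5.24 in acute 72 h, from 1.01 to 5.26 in acute 7 d, from -3.95 to 0.36 in chronic 24 h and from -1.22 to 2.66 in chronic 72 h libraries. Acute 72 h replicates 3 and 4 and acute 7 d replicates 1 and 2 stood together with high Dbp, Tef, Hlf, Per2 and Per3 and with low Arntl and Npas2. Labels and counts give no batch that holds these 4 libraries, all of which had higher depth.

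**Figure D4:**
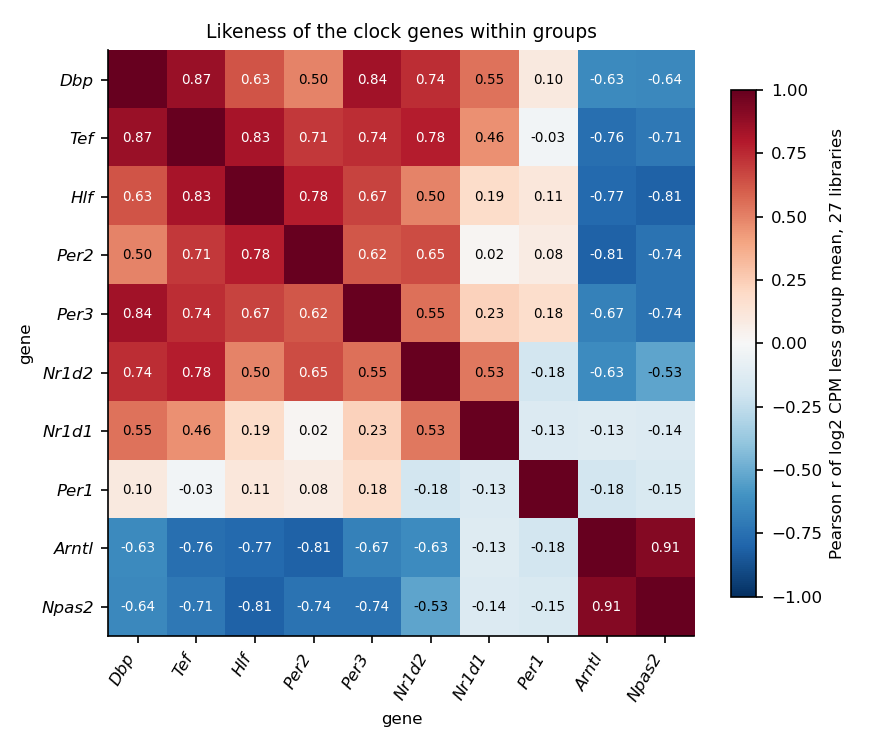
Pearson correlation of each pair of clock genes over 27 libraries, after subtraction of the group mean from log2 CPM. Dbp, Tef, Hlf, Per2, Per3, Nr1d1 and Nr1d2 correlated positively with each other and negatively with Arntl and Npas2, and Per1 lay near 0 with the other 9.

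Within groups, the clock genes other than Per1 deviated in 2 opposed sets. The sets were drawn after the values had been seen, and the correlations are descriptions over 27 libraries that share depth classes and cell makeup. Among Dbp, Tef, Hlf, Per2, Per3, Nr1d1 and Nr1d2, all 21 pairs had a positive Pearson r (0.02 to 0.87, median 0.63; Spearman rho -0.01 to 0.84, median 0.64). Dbp and Tef were most alike (r 0.87, rho 0.84), then Dbp and Per3 (r 0.84, rho 0.83). The 14 pairs of those 7 genes with Arntl or Npas2 were all negative (r -0.81 to -0.13, median -0.69). Arntl and Npas2 had an r of 0.91 and a rho of 0.93. Nr1d1 was the loosest of the 7, with an r of 0.02 with Per2 and -0.13 with Arntl. Per1 had an r between -0.18 and 0.18 with the other 9. Among the 19 libraries of higher depth, the medians were 0.67 and -0.74, and Nr1d1 gave -0.29 with Per2, -0.002 with Per3, 0.05 with Arntl and 0.001 with Npas2, so that neither sign held for all pairs there.

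Over all 27 libraries and 10284 candidate genes, the genes outside the set most like Dbp in log2 CPM included Pdcd4 (Pearson r 0.87, Spearman rho 0.84), Sphk2 (0.86, 0.92), Nadk2 (0.86, 0.74) and Copg2 (0.85, 0.71). Those most like Arntl were Cerk (0.84, 0.86), Foxs1 (0.84, 0.77), Mafk (0.83, 0.88), Klf2 (0.80, 0.72) and Flywch1 (0.80, 0.85). After subtraction of group means, Pearson r was 0.45 to 0.61 for these genes with Dbp and 0.54 to 0.81 with Arntl. Sphk2 shares 539 exon bases with Dbp, 18.0% of its exons, on the opposite strand, and Thra shares 263 bases, 8.55%, with Nr1d1. Strand use in counting is not stated, so that reads of these overlaps cannot be told apart. Sphk2 held 48.5 to 73.7 CPM in healthy and 30.4 to 41.7 CPM in acute 24 h libraries, and Thra 61.4 to 115 and 30.2 to 41.2 CPM.

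Of 17 further clock genes, 16 passed the filter, and 11 of these differed among the 7 groups. Rorb, a neural member of the ROR family, had counts in 4 of 27 libraries and was not tested. Those called in the 9 comparisons included Nfil3, Cry1, Clock, Ciart, Bhlhe41 and Fbxl21. Against healthy, 2 of 16 were higher in acute 24 h (Nfil3 and Cry1) and 1 in acute 72 h (Ciart). In acute 7 d 3 were higher (Nfil3, Ciart and Bhlhe41) and 1 lower (Clock), and in chronic 24 h 2 were higher (Nfil3 and Bhlhe41) and 1 lower (Fbxl21). Nfil3 was higher in chronic 72 h and Bhlhe41 in chronic 14 d. The percentages of all genes called in these comparisons are those given above.

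Nfil3, which encodes the repressor that competes with DBP, TEF and HLF for D-boxes, had the smallest adjusted p of these 16 in the F test over the groups (5.43e-07). It held 13.1 to 46.1 CPM in healthy, 205 to 221 CPM in acute 24 h and 111 to 263 CPM in chronic 24 h libraries. None of the 24 h libraries overlapped the healthy ones, and Nfil3 rose by 2.99 (SE 0.41, adjusted p 6.01e-06) and 2.89 (SE 0.39, adjusted p 5.12e-06) on the log2 scale. In chronic 14 d it held 18.7 to 33.8 CPM, all below chronic 24 h, and was lower by 3.04 (SE 0.39, adjusted p 7.96e-06). Nfil3 was also higher than healthy in acute 7 d (1.75, SE 0.38, adjusted p 0.00151) and chronic 72 h (2.03, SE 0.38, adjusted p 0.000463). Among acute 7 d libraries, replicates 3 and 4, those with less Per2, Per3 and Hlf, held 133 and 124 CPM of Nfil3, and replicates 1 and 2 held 51.7 and 52.1 CPM.

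Cry1, a repressor of the positive limb, held 4.62 to 16.3 CPM in healthy and 23.4 to 30.8 CPM in acute 24 h libraries and rose by 1.28 (SE 0.35, adjusted p 0.00617). In chronic 24 h it held 9.14 to 15.6 CPM, lower than in acute 24 h by 1.15 (SE 0.35, adjusted p 0.0199). Clock, the usual partner of Arntl, held 46.8 to 56.7 CPM in healthy and 20.6 to 29.4 CPM in acute 7 d libraries, and fell by 1.19 (SE 0.22, adjusted p 0.000327). In chronic 72 h it held 23.0 to 38.0 CPM, also below every healthy library, and differed by -0.88 (SE 0.22, adjusted p 0.00497), less than 2-fold. The other four groups held 28.1 to 66.7 CPM. Ciart, Bhlhe41 and Fbxl21 had low levels. Ciart, another repressor, held 0 to 0.843 CPM in healthy libraries and 0.693 to 7.28 CPM in acute 72 h. Bhlhe41, an E-box repressor, held 0 to 0.878 CPM in healthy and up to 10.7 CPM in acute 7 d libraries. Fbxl21, which acts on cryptochromes, held 1.85 to 3.64 CPM in healthy and 0 to 1.05 CPM in chronic 24 h libraries and was called lower (adjusted p 0.00293).

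**Figure D5:**
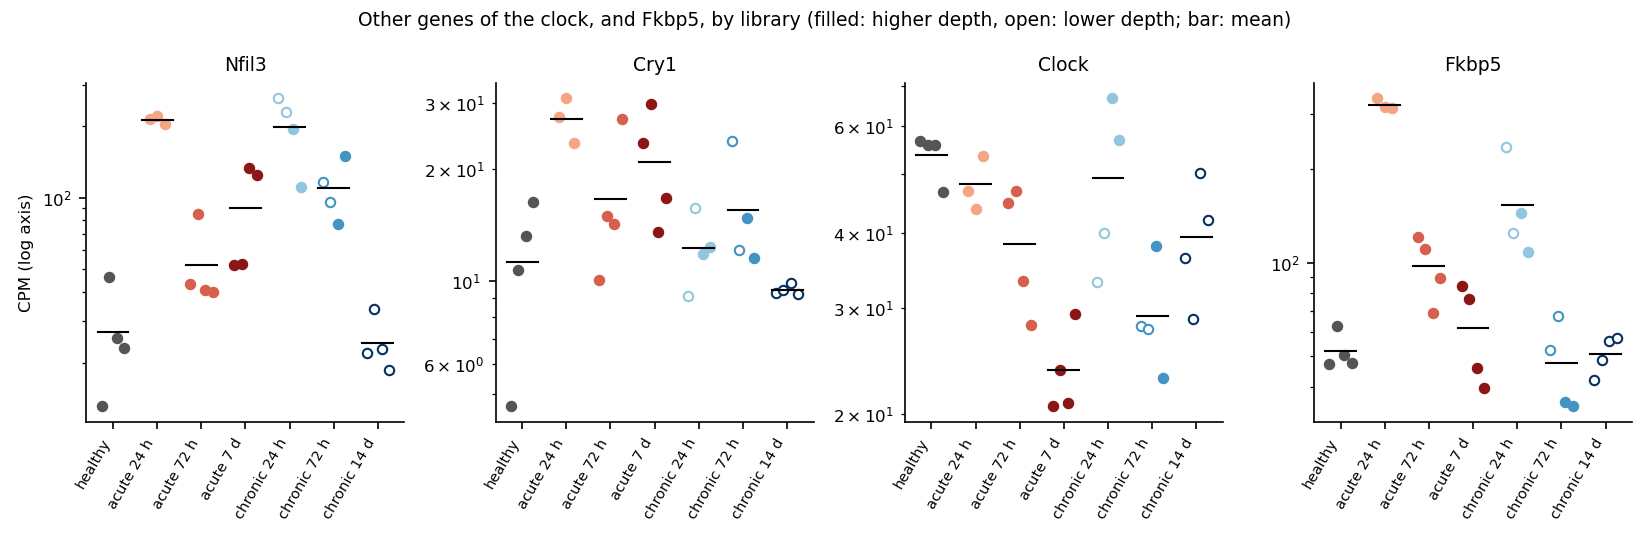
Level of Nfil3, Cry1, Clock and Fkbp5 in every library, as CPM on a log axis, by group; bars are means and open points libraries of lower depth. Nfil3 held at least 111 CPM in the 24 h libraries and at most 46.1 CPM in healthy and chronic 14 d ones.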

How the data were processed

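RNA was sequenced from 27 libraries of sorted HSCs, 1 per column. Whether a library pooled cells of several mice is not stated in the sources used here. Following the labels and the published methods, reads (single-end) went through FastQC, were mapped to GRCm38 by STAR and summarised by StringTie, versions not given in the sources used here. The deposited values are raw counts per Ensembl gene, without normalization by the authors, and strand use is not stated. Symbols, positions and exon lengths came from GENCODE M21, promoter windows from RefSeq (GRCm38.p6).

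The counts were tested with edgeR 4.0.16 in R 4.3.3. filterByExpr by group kept 18758 of 53379 genes, scaling was by TMM, and 1 robust quasi-likelihood model with 7 group means took all 27 libraries. Calls needed a Benjamini-Hochberg adjusted p below 0.05 over all genes and a change above 2-fold. Log2 CPM used a prior count of 2. On simulated counts for acute 24 h against healthy (18758 genes), 74 of 100 genes shifted by 2 on the log2 scale and 81 of 100 shifted by 3 were recovered, with 4 false calls. Only those genes were shifted, in acute 24 h alone. The data gave 1765 calls higher and 2353 lower in that comparison, so that recovery there can differ from the simulated one. Alternatives were the size factors of DESeq2 (1.42.0), its own test, library size alone, no filter, a mean of at least 1 CPM, the 2 groups compared alone, the replicate number as a block, depth class (split at 9 M) or a hepatocyte marker score as a term, libraries of higher depth alone, no fold minimum, and each library left out in turn. The members and lists were chosen with earlier results of these data known. Named were all members, the further clock genes called or filtered out, the 5 genes most like Dbp and Arntl (mean log2 CPM of at least 3), and genes of the glucocorticoid list that moved with Per1. Some genes that this rule names are not reported here. Mean ± SD and ranges are over libraries. Lower depth adds counting error, and depth class also went with level in places, as for Nr1d2 in chronic 24 h. What else the depth classes differ in was not tested. Figures were drawn with matplotlib 3.10.9.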

Additional observations from a re-analysis of the deposited data

Results flagged for a closer look

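The step of Dbp from 24 h to 72 h differed between single and repeated injury by 4.13 on the log2 scale (SE 1.15, adjusted p 0.0220 in edgeR), by the test of the difference itself. After a single injection all 4 libraries at 72 h lay above all 3 at 24 h, and after repeated injury the libraries of both times overlapped. The test was chosen after the data had been seen. Dbp alone of the members passed it, beside 10.8% of all genes. It was not repeated under other settings or with a library left out. The counts of Dbp were 19, 13 and 2 in acute 24 h. In chronic 24 h Dbp held 2.40 and 3.29 CPM in the libraries of lower depth and 18.3 and 23.1 CPM in those of higher depth. In none of the 60 sets of 4 libraries (10 genes in 6 groups) did the highest or lowest library stand apart from the other 3 beyond Dixon's 95% limit, where chance alone gives about 1 in 20.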

How the results depend on the processing

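Of 970 log2 fold changes of single members under other settings, outside those with a library left out, 907 stayed on their side of the threshold. A call was lost in 34 and gained in 29, and no call reversed. The 970 include those with no fold minimum, which repeat the main fit. These could not change, since no member passed the p threshold with a change under 2-fold. Without a filter on low counts the members called were 0 in chronic 24 h, chronic 72 h and chronic 14 d against healthy (1, 1 and 2 in the main model). With depth class as a term they were 0, 2 and 4 in these comparisons, 5 in chronic 24 h against acute 24 h (3) and 0 in chronic 72 h against acute 72 h (1). Only chronic 24 h and chronic 72 h hold both depth classes, so that this term cannot separate depth from group in chronic 14 d against healthy. With libraries of higher depth alone they were 0 in chronic 24 h and chronic 72 h against healthy and 0 in chronic 72 h against acute 72 h. With the hepatocyte score as a term they were 1 in acute 24 h (6), 0 in chronic 72 h and 0 in chronic 14 d against healthy, 2 in chronic 14 d against chronic 24 h (4) and 1 in chronic 24 h against acute 24 h. With the 2 groups alone they were 2 in chronic 72 h and 6 in chronic 14 d against healthy. Among calls in the acute groups, Nr1d2 and Npas2 at 24 h and Dbp and Arntl at 7 d were lost without a filter (adjusted p 0.0541 to 0.109), Npas2 at 24 h and Arntl at 7 d with higher depth alone (0.0943 and 0.0748), and Arntl at 7 d also with the 2 groups alone (0.0707) and with the hepatocyte score (0.0581). The cause of these shifts was not tested. Shares of all genes called were calculated for the main model only, so that counts under other settings have no such share beside them. With the replicate number as a block, chronic 72 h against healthy had 0 calls, and samples share only that number: in none of 9 comparisons did every pair's deviations correlate above 0.1. With each library left out in turn, the counts ran from 3 to 6 in acute 24 h, 4 to 7 in acute 72 h, 4 to 7 in acute 7 d, 0 to 1 in each chronic group against healthy, 3 to 6 in chronic 14 d against chronic 24 h, 3 to 4 in chronic 24 h against acute 24 h and 1 to 1 in chronic 72 h against acute 72 h. Of the 10 members, 7 differed among groups with the hepatocyte score as a term, 9 or 10 with a library left out and 10 under the other settings run. Leaving out a filter adds tested genes, and the fit of 2 groups takes its spread from those libraries only. Within-group correlations of Dbp with the other 9 members stayed within their intervals under a prior count of 0.5, Spearman's rho and higher depth alone. Low counts of Dbp, Hlf and Npas2 (down to 2, 6 and 6) limit the precision of their lowest values.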
